A study of Mus musculus with 32 samples.

Results

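Smarca5 was knocked down with an shRNA in mouse cells that were on their way from embryonic fibroblasts to induced pluripotent stem cells and that overexpressed CTCF, and open chromatin was mapped by ATAC-seq on day 10. ATAC-seq reads open chromatin from the places where the transposase Tn5 inserts adapters, and its result here is 1 deposited list of peaks for each group. Peaks found without the Smarca5 shRNA and not with it are called lost, peaks found only with it are called gained, and peaks that overlap by at least 1 bp are called shared. There were 12363 lost and 11123 gained peaks among 78684 sites in either list. The comparison rests on 4 of the 32 samples of the series.

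Both groups carried Oct4, Sox2, Klf4 and c-Myc (OSKM) and a retroviral CTCF vector, and 1 of them also carried the Smarca5 shRNA. The other is given no control shRNA in its label. A further day 10 group carried OSKM with an overexpression control in place of CTCF. Each of these groups had 2 samples from unsorted cultures of fibroblasts that hold a GFP reporter of the pluripotency gene Pou5f1 (OG2 cells). Where a peak was present in a mixed culture, fewer cells of a type and less open chromatin per cell cannot be told apart. Other lists of the series served as a map of the reprogramming path, all of them with control shRNA: cells of day 0, sorted Thy1+ cells of days 3, 6 and 9, sorted SSEA1-Thy1- and SSEA1+ cells of days 6 and 9, and sorted GFP+ cells of day 12. An unsorted day 12 pair with control or Smarca5 shRNA and no CTCF vector was the only other Smarca5 experiment. The sorted cells came from a doxycycline-inducible lentiviral OSKM system per the series' design text.

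Smarca5 (Snf2h) is the ATPase of ISWI remodelling complexes, which slide nucleosomes along DNA and space them evenly. CTCF is a zinc finger protein that binds long DNA motifs, marks domain borders together with cohesin, and depends on nucleosome sliding by Smarca5 for part of its binding. During reprogramming, chromatin open in fibroblasts closes and sites of the pluripotency network open, with Thy1 marking cells that keep a fibroblast surface, SSEA1 marking an early step, and the GFP reporter marking a late step.

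Promoters of 3 genes from the lists below had a lost peak over a match to a factor motif, and their sequences show which bases left the list. The sequences are the 250 bases before an annotated start site, from RefSeq (GRCm38.p6), 5′ to 3′, and all 3 genes lie on the + strand. Capitals mark matches, on either strand and inside the lost peak, to the Sox letters CATTGT or the Klf letters GGGNGTGG. Nanog, a core pluripotency factor, lost a peak at chr6:122707256-122707655, and the window shown is chr6:122707239-122707488. Pou5f1, which encodes Oct4, lost a peak at chr17:35505763-35506162, and its window is chr17:35505782-35506031. Crb3, a polarity protein of epithelial tight junctions, lost a peak at chr17:57061953-57062352, and its window is chr17:57061951-57062200.
Nanog: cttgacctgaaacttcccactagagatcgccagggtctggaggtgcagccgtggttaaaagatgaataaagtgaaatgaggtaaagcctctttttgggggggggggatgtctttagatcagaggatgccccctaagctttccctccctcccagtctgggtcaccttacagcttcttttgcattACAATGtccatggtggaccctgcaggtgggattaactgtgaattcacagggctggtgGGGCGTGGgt
Pou5f1: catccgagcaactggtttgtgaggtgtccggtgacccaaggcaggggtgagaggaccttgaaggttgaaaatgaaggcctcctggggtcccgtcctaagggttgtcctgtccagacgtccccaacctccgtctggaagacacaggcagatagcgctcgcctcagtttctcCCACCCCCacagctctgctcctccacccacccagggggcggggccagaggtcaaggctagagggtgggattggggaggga
Crb3: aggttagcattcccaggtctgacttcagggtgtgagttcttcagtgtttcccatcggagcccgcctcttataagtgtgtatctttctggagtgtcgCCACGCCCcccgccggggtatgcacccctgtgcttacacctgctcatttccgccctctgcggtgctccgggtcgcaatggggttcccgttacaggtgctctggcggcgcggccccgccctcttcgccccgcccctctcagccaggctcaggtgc
Among all 21263 start-site windows of 300 bases (250 before and 50 after the start), 11% held the Sox letters and 19.4% the Klf letters, so such matches are common. Klf letters were in 25% of windows with a lost peak and in 24.0% of those with a shared one. The lost start-site peaks of Sox2, Esrrb, Dcx and Krt7 covered no match to a searched motif in their windows and are not shown. A match is a description of the letters and not a bound site.

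The lists with and without the shRNA were of similar length, and their difference was an exchange of sites rather than a shortening. The CTCF list held 67561 peaks after merging, the list with Smarca5 shRNA 66321 and the overexpression control 72414. The lost peaks made up 18.3% of the CTCF list, and the gained peaks 16.8% of the list with Smarca5 shRNA. Of all sites in either list, 70.2% (95% interval 69.8 to 70.5) were in both. Ranges in parentheses are 95% intervals by the exact Clopper-Pearson method and reflect only the number of peaks counted, not the spread between cultures. Since a group has 1 list, no test could be made between them, and the sequencing depth behind a list is unknown.

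Lost and gained peaks mostly lay kilobases away from the nearest peak of the other list. Of the 55198 shared peaks, 55197 overlapped by the full 400 bp of an interval or more. The day 10 lists share peak positions, so this overlap comes with the lists and does not test whether peaks shifted. The median lost peak lay 8.67 kb from the nearest peak of the other list and the median gained peak 10.2 kb.

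Both classes were poor in promoters, the gained peaks more so than the lost ones. Peaks within 1 kb of a start site were 26.4% of the shared, 8.02% (7.55 to 8.52) of the lost and 3.32% (2.99 to 3.67) of the gained peaks. Within 2.5 kb the lost and gained shares were 12.5% and 6.27%, and within 500 bp 6.05% and 1.81%. In gene bodies beyond 1 kb from a start lay 47.3% of the lost and 49.7% of the gained peaks. The median distance to the nearest start site was 13.8 kb for shared, 22.8 kb for lost and 40.3 kb for gained peaks. Gained peaks also lay in regions with fewer genes, with a median of 10 start sites within 500 kb against 15 for both lost and shared peaks. By chromosome, lost peaks per gained peak ran from 0.735 on chromosome 13 to 1.48 on chromosome 7, leaving out Y, where 2 peaks were lost and 0 gained.

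The lost peaks were mostly sites open in GFP+ cells, and the gained peaks mostly were not. The GFP+ list overlapped 8605 of the 12363 lost peaks, or 69.6% (68.8 to 70.4). It overlapped 2910 of the 11123 gained peaks, or 26.2% (25.3 to 27). For shared peaks the share was 75.2%. In the day 0 list the classes were close, with 42.8% of the lost and 41.1% of the gained peaks.

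In the Thy1+ list the order turned, with 59.6% of the lost peaks against 74.0% of the gained ones. SSEA1-Thy1- cells held 58.8% and 69.6%, and SSEA1+ cells 58.9% and 61.3%. Along the sort order Thy1+, SSEA1-Thy1-, SSEA1+ and GFP+, the share of gained peaks was thus smaller in each next list, while the share of lost peaks stood near 59% in the first 3 lists and at 69.6% in the last. The lists are also shorter in that order, with 194446, 151240, 135749 and 91337 peaks, so a share is compared here between classes within a list.

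**Figure D1:**
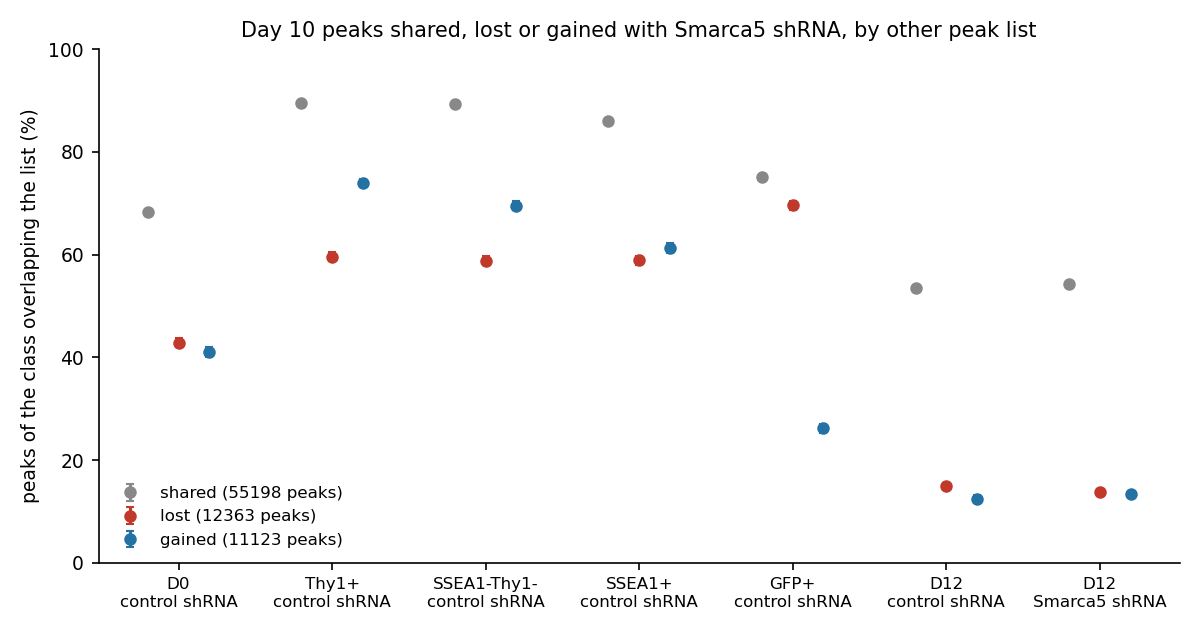
Share of the shared, lost and gained day 10 peaks (y axis, percent) that overlap each of 7 other peak lists (x axis), with exact 95% intervals over peaks. Lost and gained peaks stand furthest apart in the GFP+ list, at 69.6% and 26.2%.

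Gene density moved with this result, and its part in it was not tested. Within regions of at most 5 start sites within 500 kb, the GFP+ list held 66.9% of the lost and 17.2% of the gained peaks. Within regions of over 20 start sites it held 69.8% and 36.7%. The lost share was thus higher than the gained share at both ends of gene density. Away from start sites by more than 1 kb the shares were 69.3% and 25.7%.

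Read the other way, the share of the CTCF list that was lost differed with where in the path a site was open. Among the 1560 CTCF-list peaks that were in the GFP+ list and in no other of the 5 control lists from day 0 to GFP+, 1057 were lost, or 67.8% (65.4 to 70.1). For peaks in the GFP+ but not the Thy1+ list the lost share was 51.8%. It was 10.5% for peaks in all 5 lists and 10.9% for peaks in the Thy1+ but not the GFP+ list. All of these stand beside 18.3% for the whole CTCF list.

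Gains were most frequent at sites outside the GFP+ list. Of the 16001 peaks with Smarca5 shRNA that lay in the Thy1+ but not the GFP+ list, 5803 were gained, or 36.3% (35.5 to 37.0). For peaks in the day 0 but not the GFP+ list the gained share was 32.6%. Sites open only on the way, in 1 of the Thy1+, SSEA1-Thy1- or SSEA1+ lists or more but neither at day 0 nor in GFP+ cells, had a gained share of 42.8%. Peaks in the GFP+ list and in no other of the 5 had 22.0%, peaks in the GFP+ but not the Thy1+ list 17.3% and peaks in all 5 lists 3.61%, beside 16.8% for the whole list. Sites open in all 5 lists thus had low shares of both losses and gains.

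**Figure D2:**
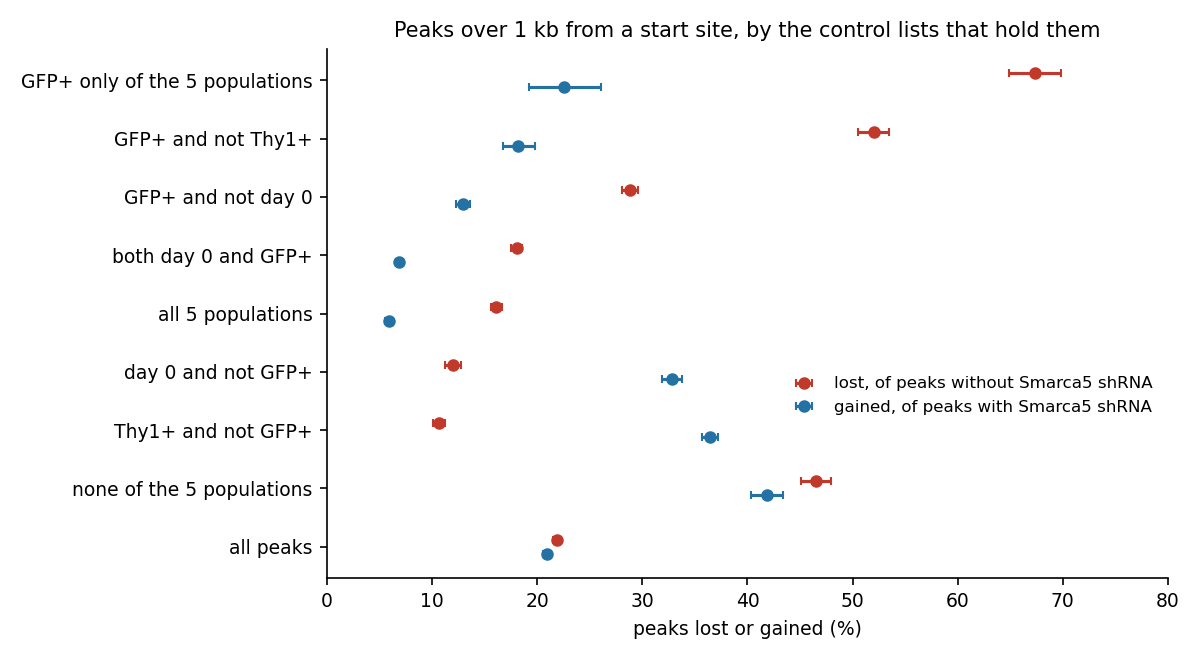
Share of peaks lost (red, of the CTCF list) or gained (blue, of the list with Smarca5 shRNA) on the x axis in percent, for peaks over 1 kb from a start site, by the control lists that hold the site (y axis), with exact 95% intervals over peaks. Losses are highest at sites of the GFP+ list alone (67.4%) and gains exceed losses at sites of the day 0 or Thy1+ list that are not in the GFP+ list.

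Counted over the whole path, the list with Smarca5 shRNA held fewer of the opening sites and more of the closing sites than the CTCF list. Opening sites are the 41521 GFP+ peaks outside the day 0 list. The overexpression control list held 14852 of them (35.8%), the CTCF list 14538 (35.0%) and the list with Smarca5 shRNA 11805 (28.4%). Closing sites are the 104146 day 0 peaks outside the GFP+ list, of which the lists held 9279 (8.91%), 7425 (7.13%) and 9669 (9.28%) in the same order. Stable sites, the 49816 day 0 peaks also in the GFP+ list, were held at 73.1%, 71.6% and 65.7%. The list with Smarca5 shRNA was lowest at opening and stable sites and highest at closing sites.

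CTCF overexpression against its control shares the CTCF list with the comparison above, so its own values are only set beside it. There 12205 peaks were lost, of which the GFP+ list held 37.7%, and 7352 were gained, of which it held 48.3%. With Smarca5 shRNA on top the corresponding shares were 69.6% and 26.2%.

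The day 12 pair, Smarca5 shRNA against control shRNA without the CTCF vector, shares no sample with the day 10 pair and held far fewer differences. Its lists had 43618 and 44279 peaks, with 2355 lost and 3016 gained. The GFP+ list held 52.4% (50.3 to 54.4) of those lost and 44.6% (42.8 to 46.4) of those gained, a smaller gap in the same direction as at day 10. The difference between the gaps was not tested.

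Few sites changed in both pairs. Of the day 10 lost peaks 305 were also lost at day 12, which is 2.47% of the day 10 class and 13.0% of the day 12 class, and 163 were gained there. Of the day 10 gained peaks 201 were also gained at day 12, which is 1.81% of the day 10 and 6.66% of the day 12 class, and 101 were lost there. Of the 55198 shared day 10 peaks, 609 were in the day 12 control list and not with Smarca5 shRNA, and 1074 the reverse. Most sites of both changed day 10 classes were not in the day 12 lists. The day 12 control held 15.0% of the lost and 12.5% of the gained peaks, beside 53.5% of the shared ones.

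Among sites that were in the day 12 lists the direction carried over in part. Of the 1853 day 10 lost peaks in the day 12 control list, 16.5% (14.8 to 18.2) were not in the day 12 list with Smarca5 shRNA, against 2.06% of shared and 7.18% of gained peaks. Of the 1493 day 10 gained peaks in the day 12 list with Smarca5 shRNA, 13.5% (11.8 to 15.3) were not in its control, against 3.58% of shared and 9.53% of lost peaks. Both classes thus changed more often than shared peaks in either direction at day 12, and most often in the direction they had at day 10.

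Promoter peaks, meaning a peak within 1 kb of a start site of a protein-coding gene, were lost more often than gained. The overexpression control list held one at 14398 of 21887 genes, the CTCF list at 14489 and the list with Smarca5 shRNA at 14009. Of the genes with a promoter peak in the CTCF list 616 lost it (4.25%), and of the 7398 genes without one 136 gained it (1.84%). Of the 616 genes 519 (84.3%) had a promoter peak in the GFP+ list and 367 (59.6%) in the day 0 list. Of the 136 genes 66 (48.5%) had one in the GFP+ list and 82 (60.3%) at day 0. For genes with a promoter peak both with and without Smarca5 shRNA these shares were 98.5% and 97.4%. For genes with one in neither list they were 8.51% and 10.9%. Both changed groups thus lay between these, and lost promoters were less often in the GFP+ list than kept ones.

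Promoters with a changed peak were of lower G+C content than those with a peak in both lists. The median G+C content of the 300-base windows was 62.3% at 11402 start sites with a peak in both lists, 58.7% at 472 with a lost peak, 49.3% at 88 with a gained one and 48.0% at 9301 with none. The median number of CpG dinucleotides was 22, 11, 6 and 3 in the same order. At windows under 45% G+C, 15 of 211 with a peak in the CTCF list lost it (7.11%), and 18 of 214 with a peak in the list with Smarca5 shRNA had gained it (8.41%). At windows of 65% or more these shares were 119 of 4650 (2.56%) and 8 of 4539 (0.176%). G+C content thus moved with both rates, and its part in them was not tested. Lost promoters were found in the GFP+ list at 53.3% of start sites in the lowest band and at 73.0% to 85.7% in the others. Gained promoters were found there at 22.2% to 62.5%. No such share by band is given here for promoters with a peak in both lists.

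**Figure D3:**
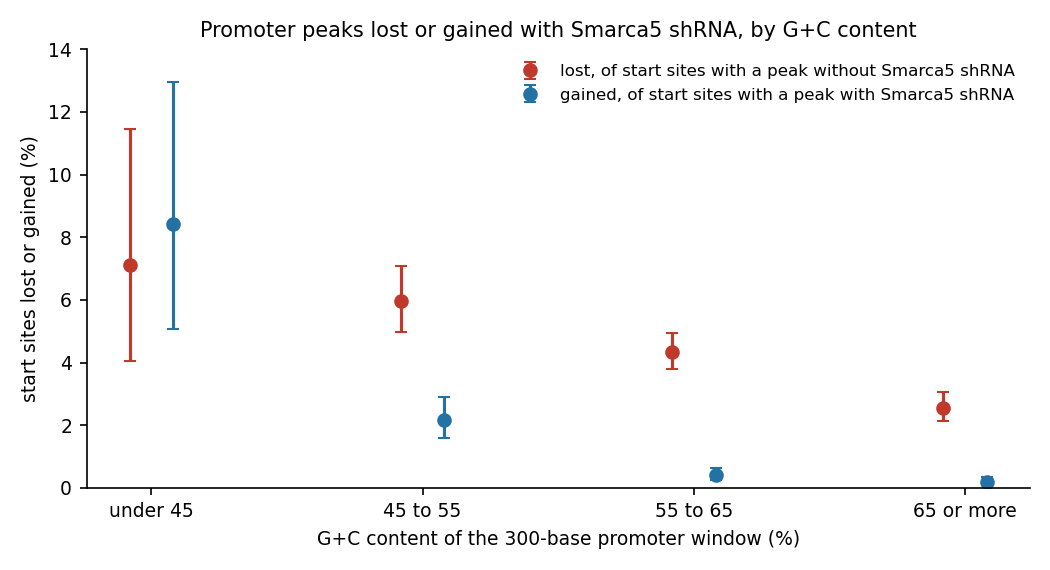
Start sites (y axis, percent) that lost a promoter peak (red, of those with a peak in the CTCF list) or gained one (blue, of those with a peak in the list with Smarca5 shRNA), by G+C content of the 300-base window around the start (x axis, percent), with exact 95% intervals over start sites. The gained share goes from 8.41% in the lowest band to 0.176% in the highest, and the lost share from 7.11% to 2.56%.

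Motif letters were searched in the same windows on both strands, and only 88 windows had a gained peak. AP-1 letters (TGANTCA) were in 7.42% of the lost, 12.5% (6.41 to 21.3) of the gained, 4.60% of the shared windows and 9.84% of those with no peak, against 6.99% of all. Sox letters were in 6.57% of the lost, 19.3% (11.7 to 29.1) of the gained and 6.46% of the shared windows, and in 16.7% of those with no peak. Klf letters were in 25%, 22.7% and 24.0% of lost, gained and shared windows and in 13.5% of those with no peak. Octamer letters (ATGCAAAT) were in 2.12% of the lost, 5.68% (1.87 to 12.8) of the gained and 1.52% of the shared windows, against 1.66% of all. For Runx letters (TGTGGTT) these shares were 2.97%, 5.68% (1.87 to 12.8), 3.06% and 4.71%. For Tead letters (ACATTCC) they were 2.75%, 2.27%, 2.42% and 3.38%. A CTCF core match was in 0.847% of the lost, 0 of the 88 gained and 0.816% of the shared windows. The Esrrb letters (TCAAGGTCA) were in none of the 472 lost and 88 gained windows and in 0.334% of all.

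The gene lists were described by the distinct peaks in their genes and 50 kb on either side. Over all 21887 genes, 39.6% had fewer such peaks with Smarca5 shRNA, 22% had more and the rest had the same number. A list's relative log2 is the log2 ratio of its peaks with over without Smarca5 shRNA, minus that of the whole lists, which was -0.03.

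The target gene and its partners came first as a check. Smarca5 had a promoter peak in all 3 day 10 lists and 6, 6 and 5 peaks within 50 kb in the overexpression control, the CTCF list and the list with Smarca5 shRNA. An open promoter does not report the level of an RNA that an shRNA cuts, so the knockdown was not checked by these data. Ctcf had 13, 15 and 15 peaks in the same order. In its gene body, the peaks at chr8:105675872-105676271 and chr8:105679961-105680360 were in both lists with the CTCF vector and in none of the overexpression control, day 0, Thy1+, SSEA1+, GFP+ and day 12 lists. A further peak in the gene, at chr8:105664080-105664479, was gained and was in none of those lists either. Whether such peaks hold reads from the vector was not tested. Among 13 ISWI genes, Smarca1, which encodes the other ISWI ATPase (Snf2l), lost its promoter peak at chrX:47891970-47892369 and had 3, 2 and 1 peaks. The 16 CTCF and cohesin genes had 127, 118 and 118 peaks, and none of them changed at the promoter.

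By promoter peaks, the CTCF list lay between the day 0 and GFP+ lists at both pluripotency and fibroblast markers. Promoter peaks were present at 25 of 30 pluripotency network genes in the CTCF list, against 21 at day 0 and 29 in GFP+ cells, and at 28 of 35 fibroblast and mesenchymal genes, against 34 and 27. With Smarca5 shRNA the counts were 22 and 28. Peaks within 50 kb did not give the same order at both lists. The pluripotency genes had 241 in the CTCF list, 236 at day 0 and 374 in GFP+ cells. The fibroblast genes had 223, 615 and 266, so the CTCF list was below both. For markers of other cell types, the CTCF list had promoter peaks at 6 of 14 haematopoietic, 6 of 12 endothelial and 11 of 14 neural genes. It had them at 3 of 12 keratinocyte and 10 of 13 endoderm and trophoblast genes. With Smarca5 shRNA these were 6, 7, 11, 4 and 8. The day 0 list had 8, 8, 9, 2 and 10 and the GFP+ list 6, 7, 11, 4 and 12. Over all genes the CTCF list had a promoter peak at 14489 of 21887. These counts therefore do not show that such cells were in the cultures.

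Peaks near the pluripotency network were fewer with Smarca5 shRNA. The 30 genes had 242 peaks in the overexpression control, 241 in the CTCF list and 211 with Smarca5 shRNA, with 374 in GFP+ cells. The relative log2 was -0.17. There were 51 lost peaks, of which the GFP+ list held 38, and 21 gained, of which it held 12. Of all lost and gained peaks it held 69.6% and 26.2%. Gained peaks near these genes were thus in the GFP+ list more often than gained peaks in general. By gene, 15 of 30 had fewer peaks, 7 more and 8 the same number, beside 39.6% and 22% of all genes with fewer and more. Other lists had a like or larger share of genes with fewer peaks, among them housekeeping (11 of 20 fewer, 2 more), AP-1 and its partners (13 of 20, 4 more) and BAF and NuRD (10 of 16, 3 more). At day 12 the relative log2 of the list between Smarca5 and control shRNA was 0.01.

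Esrrb, an orphan nuclear receptor of the naive pluripotency network at chr12:86361117-86521628, had 12 peaks in the overexpression control, 13 in the CTCF list and 6 with Smarca5 shRNA. Its 7 lost peaks had no gained counterpart, and 6 lay in the gene body or over its start. The GFP+ list held 69.6% of all lost peaks and 5 of these 7. The farthest in the gene, at chr12:86518753-86519152, was in the day 0, Thy1+, SSEA1+ and GFP+ lists. The lost peak at chr12:86463075-86463474 was in the SSEA1+ and GFP+ lists and not in the day 0 and Thy1+ lists. Neither peak was in the overexpression control or the day 12 lists. The RNA-binding protein Lin28a had 11, 11 and 6 peaks, the zinc finger factor Sall4 11, 14 and 9, and the Nodal co-receptor Tdgf1 7, 10 and 5. Each of these 4 genes was thus lower with Smarca5 shRNA than in both other day 10 lists.

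Pou5f1 had 17, 18 and 14 peaks and Sox2, its partner factor, 9, 9 and 6, with 0 gained at either gene. The lost Pou5f1 peak over the start shown above was in the day 0 and GFP+ lists and not in the overexpression control, and no other peak of either list lay within 1 kb of that start. Pou5f1 still counts as having a promoter peak through the shared peak at chr17:35509431-35509830, near its other annotated start. The lost Sox2 peak at chr3:34649701-34650100 also covered the start and left another promoter peak in place. Klf4, another of the reprogramming factors, had 5 peaks in each of the 3 lists.

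Nanog had 14, 14 and 13 peaks within 50 kb, and its start-site peak was lost. That peak was in the overexpression control and in the SSEA1+, GFP+ and both day 12 lists, and in none of the day 0, Thy1+ and SSEA1-Thy1- lists. Nr0b1 (Dax1), a nuclear receptor of the same network, lost its only peak near the start, at chrX:86192283-86192682, which the GFP+ list held and the day 0 list did not. Dppa5a, an RNA-binding protein of early embryos and stem cells, lost the peak at chr9:78368042-78368441, which the GFP+ list held and the day 0 and Thy1+ lists did not. These 3 are the network genes that lost a promoter peak (of 25 with one), and none of the 30 gained one. With a window of 2.5 kb only Nanog counts as a loss among them, and with 500 bp the losses are Nanog, Dppa5a, Pou5f1 and Sox2.

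Other network genes went the opposite way. Tet1 and Tet2, dioxygenases that oxidise methylated cytosine, had 8, 6 and 8 and 15, 12 and 14 peaks. Klf2 had 8, 8 and 10, Tfcp2l1 8, 7 and 9, and Gdf3 10, 9 and 11. All 5 held more peaks with Smarca5 shRNA than in the CTCF list by 2 peaks each. Dppa2 and Dppa4, neighbouring genes, had 0 peaks in all 3 day 10 lists, 4 and 3 at day 0, and 8 and 6 in GFP+ cells.

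**Figure D4:**
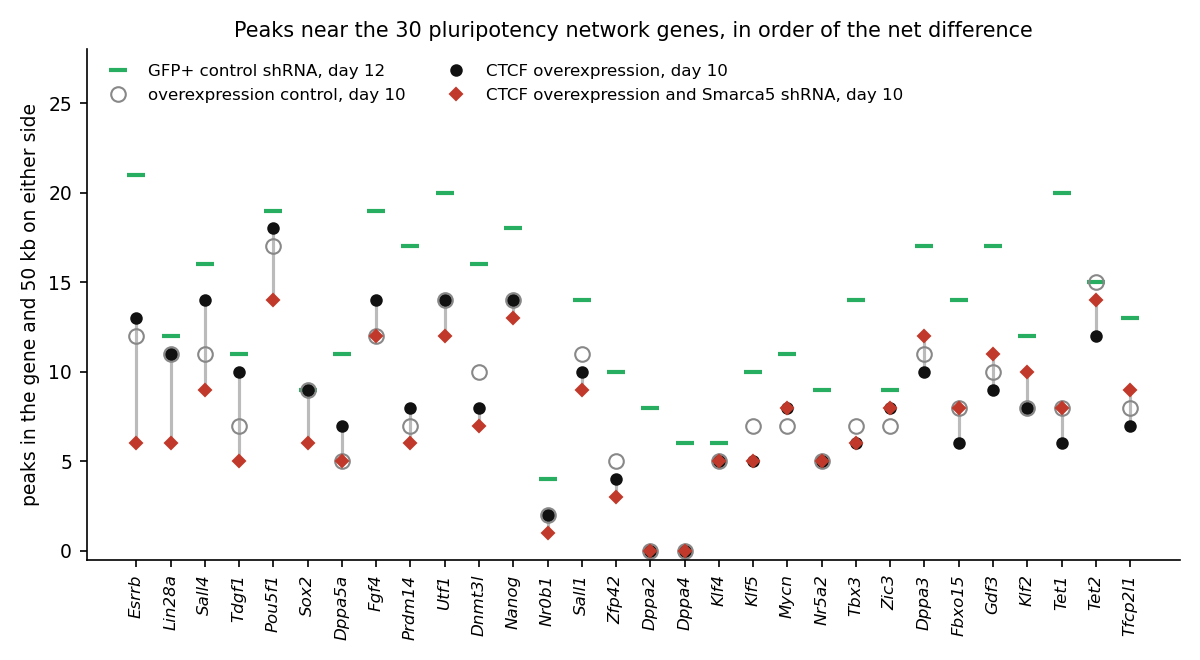
Peaks in each of the 30 pluripotency network genes and 50 kb on either side (y axis, number of peaks), in order of the net difference (x axis), in the overexpression control (open circles), the CTCF list (black), the list with Smarca5 shRNA (red) and the GFP+ list (green bars). Esrrb goes from 13 to 6 peaks at the left end, and 7 genes at the right end hold more peaks with Smarca5 shRNA.

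Fibroblast and mesenchymal genes exchanged peaks with little net difference. The 35 genes had 241, 223 and 214 peaks (relative log2 -0.03), with 615 at day 0, and 45 lost and 36 gained. The GFP+ list held 29 of the 45 lost and 5 of the 36 gained peaks, beside 69.6% and 26.2% of all lost and gained peaks. Prrx1, a homeodomain factor of mesenchyme at chr1:163245119-163315145, had 10, 6 and 9 peaks and gained a promoter peak at chr1:163314116-163314515. That peak was in the day 0, Thy1+, SSEA1+ and overexpression control lists and not in GFP+ cells. With a window of 2.5 kb Prrx1 had a promoter peak in both lists. Of its 5 gained peaks 4 were in the Thy1+ list and 0 in the GFP+ list.

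Cdh2 (N-cadherin) had 15, 9 and 12 peaks and Zeb2, a repressor of epithelial genes, 12, 12 and 15. In the other direction the receptor Pdgfrb had 11, 11 and 7 and Snai1, a further repressor of epithelial genes, 13, 16 and 12. Pdgfra, the receptor for platelet-derived growth factor, lost its promoter peak at chr5:75151118-75151517, which both the day 0 and the GFP+ list held. Thy1 had 11, 11 and 10 peaks and Col1a1, a collagen chain, 13, 14 and 12, and neither changed at the promoter. The fibroblast genes as a group thus did not move in 1 direction.

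Epithelial junction genes had 230, 230 and 222 peaks (relative log2 -0.02), and neither Cdh1 (E-cadherin; 15, 16 and 15 peaks) nor Epcam (11, 10 and 9) changed at the promoter. Crb3 lost its promoter peak, and Rab25, a GTPase of epithelial vesicle traffic, gained one that the Thy1+, SSEA1+ and GFP+ lists held. The BAF and NuRD remodelling genes had 207, 225 and 202 peaks (relative log2 -0.13), with Arid1b, a BAF subunit, at 30, 35 and 29. Keratinocyte markers went the other way, with 70, 57 and 68 peaks and a relative log2 of 0.28, from 7 lost and 18 gained peaks. Only 4 of the 12 genes had more peaks, 1 had fewer and 7 had the same number, and most of the net gain lay at a pair of genes. Dsg3, a desmosomal cadherin, had 7, 2 and 7 peaks and gained a promoter peak, and Perp, another desmosome protein, had 8, 5 and 9.

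The remaining 10 lists lay between -0.09 and 0.05 in relative log2. Changes at their promoters, besides Smarca1, were losses at Dcx, a microtubule protein of young neurons, at the trophoblast factor Elf5 and at the keratin Krt7, and gains at Vwf (von Willebrand factor) and the proneural factor Neurog2. Gains at Vwf and Rab25 needed a window of 1 kb or more, and that at Neurog2 is not counted at 2.5 kb. For Dppa5a, Vwf and Dsg3 either gene end was taken as a start, so their peaks may lie at the 3′ end. Over all lists 9 of 217 genes with a promoter peak in the CTCF list lost it (4.15%), beside 4.25% of all genes, and 5 of 50 without one gained it (10%), beside 1.84%.

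The widest net differences in peak number, in the gene and 50 kb on either side, were mostly at long genes and gene clusters. Long genes span more peaks, so this ranking favours them. Grik3, a kainate receptor subunit at chr4:125490259-125714173, had 8 peaks in the overexpression control, 14 in the CTCF list and 1 with Smarca5 shRNA, while GFP+ cells had 29. Its 13 lost peaks included the start-site peak, and the GFP+ list held 11 of them. Camta1, a calmodulin-binding transcription activator, had 35, 36 and 22 peaks, Gse1 48, 53 and 39, and Prdm16, a factor of brown fat, 18, 22 and 10.

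Lmx1b, a LIM homeodomain factor, had 22, 23 and 11 peaks, and 11 of its 12 lost peaks were in the GFP+ list. Gm37013, a gene model that runs over the clustered protocadherins, had 51, 43 and 29, and 15 of its 16 lost peaks were in the GFP+ list. For Camta1, Gse1 and Prdm16 the GFP+ list held 12 of 17, 8 of 16 and 8 of 12 lost peaks. Over all lost peaks of the comparison its share was 69.6%. These 6 genes were chosen for their net loss in this comparison, so their counts are a description.

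Genes with the widest net gain had many peaks at day 0 and in Thy1+ cells and fewer in GFP+ cells, whose list is shorter overall. This order was not particular to them. Camta1, with a net loss, had 62, 82 and 55 peaks at day 0, in Thy1+ and in GFP+ cells, and Gse1 78, 93 and 71. Grik3, Gm37013, Prdm16 and Lmx1b had more peaks in GFP+ cells than at day 0. Among the net-gain genes Btbd9 had 59, 76 and 47 and Arid5b 38, 55 and 29. Zbtb20, a zinc finger repressor at chr16:42875689-43634392, had 41, 31 and 43 peaks in the day 10 lists, 82 in Thy1+ and 15 in GFP+ cells. Of its 13 gained peaks 9 were in the Thy1+ list and 3 in the GFP+ list, beside 74.0% and 26.2% of all gained peaks. Filip1l, named for its likeness to a filamin-interacting protein, had 11, 5 and 15 peaks and Gas7, a growth-arrest gene, 16, 12 and 23. Atp10a, a phospholipid flippase, had 15, 10 and 20, and 8 of its 10 gained peaks were in the day 0 list and 0 in the GFP+ list.

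Arid5b, an AT-rich interaction domain factor, had 26, 19 and 29 peaks and gained a promoter peak, and Btbd9 had 22, 13 and 24. For Arid5b and Btbd9 the GFP+ list held 5 of 11 and 6 of 13 gained peaks, and for Gas7 and Filip1l 2 of 11 and 3 of 10. Over all gained peaks its share was 26.2%. All 6 genes had more peaks with Smarca5 shRNA than in the overexpression control. They too were chosen, for their net gain over the CTCF list. That choice favours a high count with Smarca5 shRNA, so both differences are a description.

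**Figure D5:**
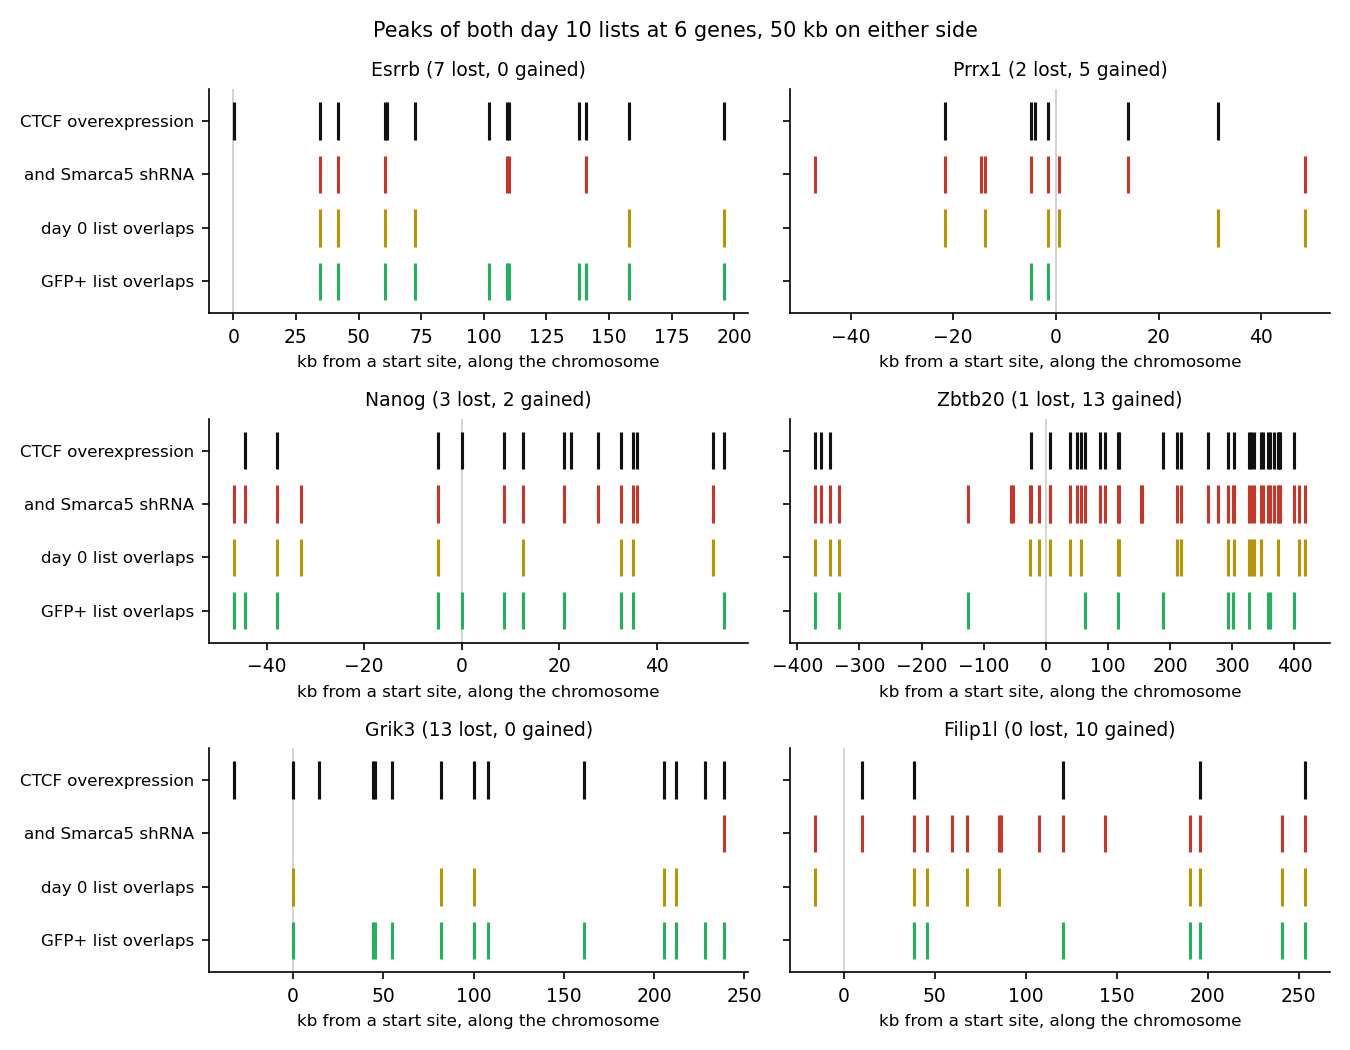
Peaks of the CTCF list (black) and of the list with Smarca5 shRNA (red) at 6 genes, with rows that mark which of these peaks the day 0 (yellow) and GFP+ (green) lists overlap, against the distance in kb from a start site along the chromosome (x axis). The 13 lost peaks of Grik3 leave 1 peak, and the 10 gained peaks of Filip1l have no lost counterpart.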

How the data were processed

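ATAC-seq peak lists were compared with no read counts. MACS2, Picard, SAMtools, Bowtie2, cutadapt, Trim Galore and FastQC, with the build mm10 (GRCm38), are named in the submitters' processing notes. Versions, threshold, read shift for the transposase and the way 2 samples became 1 list were not given in the sources used here. In the authors' deposited lists the score column is 0 throughout, so peaks could not be ranked, and the depth of each sample is unknown.

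Intervals of 400 bp were merged where they overlapped (102 and 114 intervals removed from the 67663 and 66435 deposited), in Python 3.11.15 with numpy 2.4.6, pandas 2.3.3 and scipy 1.17.1. The scripts were tested on simulated lists. Genes were 21887 protein-coding RefSeq genes of GRCm38.p6. For 17492 of them a start site was known, and both gene ends were used for the other 4395, so a promoter peak of those can lie at a 3′ end.

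Named genes were 12 chosen genes, list genes whose promoter peak was in 1 of both lists, and the 6 with the largest net loss and the 6 with the largest net gain within 50 kb, skipping genes within 200 kb of one taken. Other genes of the lists are named for their values, chosen after these were seen. Members and lists were chosen with earlier results of these data known. No sequence of the peaks outside promoters was used. Alternatives were another overlap, another promoter or gene window, unmerged intervals, autosomes, distal peaks and bands of gene density.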

Additional observations from a re-analysis of the deposited data

How the results depend on the processing

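Of 78 alternative values, 61 stayed within the interval of the value or within 1.5 times a count, and 17 moved. The 61 include all 30 relative log2 values, whose intervals are not printed here, and only 27 of these 30 kept their sign. Counting peaks within 500 bp as shared gave 70.5% of sites in both lists. The promoter share of lost and gained peaks was 12.5% and 6.27% within 2.5 kb, 6.05% and 1.81% within 500 bp, and 5.81% and 2.31% with start sites of the promoter table only, a choice made after seeing the data. With at least 200 bp of overlap the day 0 share was 39.7% of lost and 35.8% of gained peaks, the GFP+ share 65.2% and 22.3%, and the share changed alike at day 12 2.11% and 1.38%. The bands of gene density, also chosen after seeing the data, gave the GFP+ list 66.9% of lost and 17.2% of gained peaks with at most 5 start sites within 500 kb, and 36.7% of gained peaks with over 20. Why the shares moved was not tested.

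Within 500 bp of a start, Pou5f1 and Sox2 counted as promoter losses and Nr0b1 and Pdgfra did not, and 3 list genes counted as gains (Dsg3, Neurog2 and Prrx1). Within 2.5 kb Crb3, Dppa5a and Nr0b1 were not losses, and Neurog2 and Prrx1 not gains. The relative log2 of the 15 gene lists had the same sign with 20 or 100 kb windows in 27 of 30 cases. It turned for epithelial junction genes (0.04 at 20 kb), ISWI genes (0.01 at 100 kb) and CTCF and cohesin genes (-0.01 at 100 kb).

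No paired analysis was possible because each group has 1 peak list, and leaving out a replicate was not possible for the same reason. Motifs in distal peaks alone were not run, since no genome was used here. Unknown depth limits every count of lost and gained peaks.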

Other observations

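Sites in none of the 5 control lists from day 0 to GFP+ were more frequent among changed peaks than among shared ones. They made up 19.2% (18.5 to 19.9) of the lost, 16.9% (16.2 to 17.6) of the gained and 5.31% of the shared peaks. Of such peaks in the CTCF list 44.7% were lost, and of those in the list with Smarca5 shRNA 39.1% were gained.

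Lost peaks had another lost peak within 10 kb in 20.9% of cases, and gained peaks another gained one in 14.5%. Shared peaks had another shared peak within 10 kb in 59.7%. Each class was searched only for its own members, which numbered 12363 lost, 11123 gained and 55198 shared peaks. The shares depend on these numbers and do not compare clustering between classes.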
